A study of Mus musculus with 8 samples.

Results

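*Lyve1*, *Timd4*, *Folr2*, *Cd163*, *Mrc1*, *F13a1*, *Cbr2*, *Vsig4* and *Selenop* are genes used as markers of the resident macrophages that lie along vessels in adipose tissue. These 9 genes were picked by symbol out of the 54146 genes counted in the bulk RNA-Seq of eWAT (epididymal white adipose tissue) macrophages. The data comprised 8 libraries, 1 of FCGR4+ and 1 of FCGR4- macrophages from each of 4 C57Bl6 mice. The mice in both groups had eaten a high-fat diet freely for 24 weeks and had then been kept on stCR (short-term caloric restriction, with 30% less food) for 2 weeks. The paper describes its obesity diet as high in fat with added cholesterol. The comparison is thus between cell populations of restricted mice, without an unrestricted group. The cells were sorted as CD45+, CD11b+ and negative for CD3, B220, Ly6G and SiglecF, then split by FCGR4, an activating receptor for IgG. The labels do not give the age of the mice.

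Resident macrophages of adipose tissue are held to renew locally and to sit beside blood vessels, where they take up debris and circulating macromolecules. Their usual markers are mostly endocytic receptors. LYVE1 binds hyaluronan, TIMD4 binds the phosphatidylserine of apoptotic cells, FOLR2 binds folate, CD163 takes up complexes of hemoglobin with haptoglobin, MRC1 (CD206) takes up mannosylated glycoproteins, and VSIG4 binds fragments of complement C3. The other markers are an intracellular or secreted product each: F13A1 is the catalytic subunit of coagulation factor XIII and crosslinks fibrin, CBR2 is a carbonyl reductase, and SELENOP is the plasma carrier of selenium. LYVE1 also marks lymphatic endothelium, TIMD4 large peritoneal macrophages, F13A1 platelets and monocytes, and VSIG4 Kupffer cells.

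The libraries held between 35992794 and 66856746 counts, and 17095 genes passed the filter of at least 10 counts in at least 4 libraries, all 9 markers among them. Levels are given as normalized CPM (counts scaled to library size by edgeR's TMM method), where 3 counts correspond to between 0.0440 and 0.0883. Differences are log2 fold changes of FCGR4+ over FCGR4- cells from edgeR's paired quasi-likelihood test, called at an adjusted P under 0.1. The sort was visible in the RNA, since *Fcgr4* was at 138.6 or more in FCGR4+ and at 82.9 or less in FCGR4- libraries (log2 fold change 1.61, edgeR adjusted P = 0.0162). The general macrophage genes *Adgre1*, at 1573 ± 557.2 and 1134 ± 614.2 normalized CPM in FCGR4+ and FCGR4- cells (SD, n = 4 mice), and *Cd68*, at 1712 ± 352.8 and 1605 ± 297.2, were abundant in both populations. Markers of some other cells were higher in FCGR4- libraries. Summed over each list, the 10 mast cell and basophil markers ranged from 14.5 to 30.5 normalized CPM in the FCGR4+ and from 391.5 to 2147 in the FCGR4- libraries, the 10 fibroblast markers from 150.2 to 298.2 against 376.9 to 1602, the 8 neutrophil markers from 117.0 to 548.8 against 392.6 to 2508, and the 9 dendritic cell markers from 15.6 to 23.0 against 54.7 to 101.6. The sums of the T and NK cell, B cell, mesothelial, peritoneal macrophage and adipocyte markers were also higher in FCGR4- cells, in 4 of 4 mice each. Those of the blood endothelial and Kupffer cell markers were higher in FCGR4+ cells in 3 of 4 mice, and few genes carried them. Blood endothelial markers summed to 154.6 ± 36.9 in FCGR4+ and 109.4 ± 32.7 in FCGR4- libraries, and without *Fabp4*, which macrophages also express, to 16.4 ± 5.83 and 22.2 ± 5.94. Kupffer cell markers summed to 146.7 ± 99.2 and 90.9 ± 45.2, mostly from *Cd5l* (84.4 and 37.2) and *Il18bp* (50.2 and 23.3), and the median log2 fold changes of the lists were -0.68 and -0.45. The part of these cells in the levels of the 9 markers, or of the other genes named below, was not tested. In bulk RNA, fewer cells of a type and less RNA per cell cannot be told apart.

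The 9 markers did not share a direction. By edgeR, 1 of the 9 passed the threshold as lower in FCGR4+ macrophages, *Cd163*, where 1.19% of all tested genes did, and 0 passed as higher, where 0.0819% did. At an unadjusted P under 0.05 by edgeR, 3 markers were lower, where 6.67% of all tested genes were, and 1 was higher, where 3.1% were, and these were the same 4 that DESeq2 called. By DESeq2 with the same paired model, 3 of the 9 were called lower (*Cd163*, *Vsig4* and *F13a1*), where 4.87% of all tested genes were, and 1 was called higher (*Mrc1*), where 1.12% were. The direction was shared by all mice for 4 markers. *Cd163*, *Vsig4* and *F13a1* were lower in the FCGR4+ cells of all 4 mice, where 10.4% of the genes tested were, and *Mrc1* was higher in all 4, where 8.35% were. The median log2 fold change of the 9 was -0.02, beside -0.0025 over all tested genes.

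**Figure D1:**
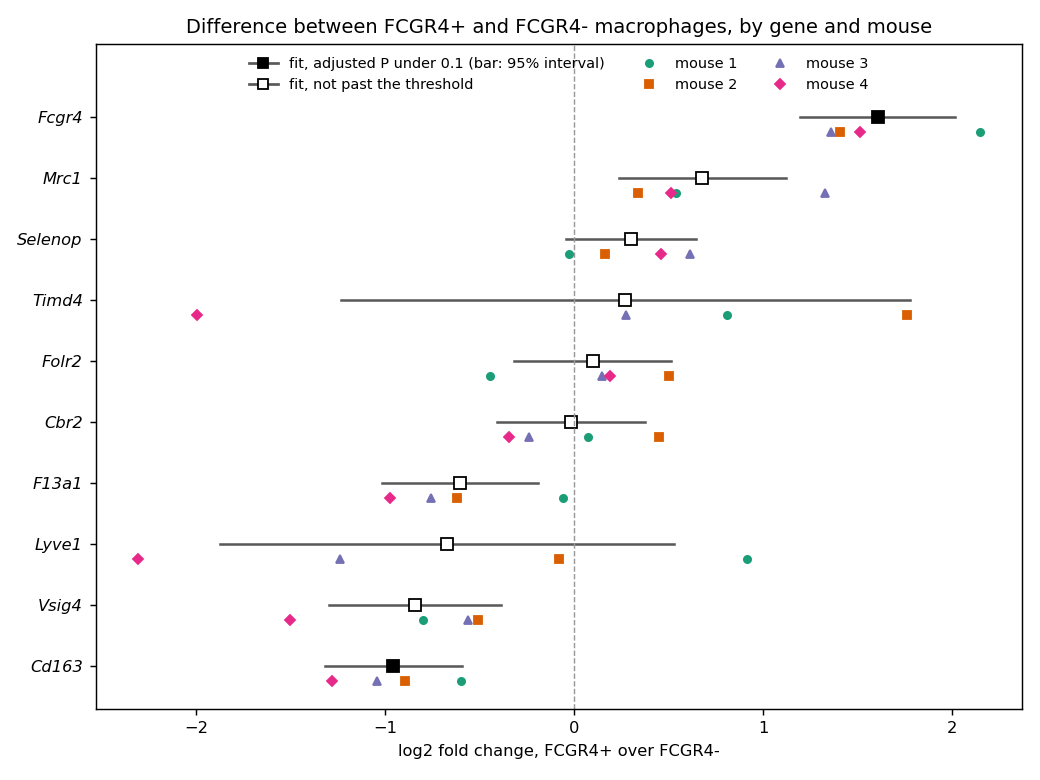
Log2 fold change of each marker, FCGR4+ over FCGR4- macrophages, with *Fcgr4* as the gene of the sort. Squares are the paired fit with 95% intervals as bars, filled where the adjusted P was under 0.1, and the colored points below each square are the ratios of the 4 mice. *Cd163* at -0.96 is the filled square among the markers, and the points of *Lyve1* and *Timd4* lie on both sides of 0.

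*Cd163*, encoding the hemoglobin scavenger receptor, lies on the plus strand of mm10 chromosome 6 from 124304656 to 124330527 and has 16 annotated exons after merging. Its level in FCGR4+ macrophages was 35.5, 12.7, 39.0 and 21.1 normalized CPM in mice 1 to 4, and in FCGR4- macrophages 53.8, 23.7, 80.4 and 51.4 in the same order. Every mouse had less in its FCGR4+ cells, but the populations overlapped, since mouse 2 had less in its FCGR4- cells than mice 1 and 3 had in their FCGR4+ cells. The means were 27.1 ± 12.3 and 52.3 ± 23.2 (SD, n = 4), a fold of 0.515 and a log2 fold change of -0.96 (standard error, SE, of 0.155, 95% interval -1.32 to -0.59, edgeR adjusted P = 0.0602). The per-mouse log2 ratios ran from -0.60 in mouse 1 to -1.28 in mouse 4. The call needed all 4 mice and their pairing. Without any 1 mouse the adjusted P by edgeR was between 0.104 and 0.212, with log2 fold changes between -1.08 and -0.85, and with no replicate block it was 0.802, while DESeq2 gave 3.86e-06.

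Of 11 genes that act with CD163, in haptoglobin and heme handling or in its shedding from the surface, 10 were tested and 0 passed by edgeR in either direction (3 lower and 1 higher at an unadjusted P under 0.05), with a median log2 fold change of 0.03. DESeq2 called 2 of them lower and 1 higher. *Hp*, encoding haptoglobin, was at 79.5 ± 22.6 in FCGR4+ and 220.3 ± 129.1 in FCGR4- cells (log2 fold change -1.22, edgeR adjusted P = 0.297), and was lower in FCGR4+ cells in 3 of 4 mice. *Hpx*, encoding hemopexin, had at most 25 counts in any library and was not tested.

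*Vsig4*, encoding the complement receptor of the immunoglobulin family, lies on the minus strand of chromosome X from 96247203 to 96293438. In FCGR4+ macrophages it was at 23.6, 47.2, 55.97 and 12.9 normalized CPM in mice 1 to 4, and in FCGR4- macrophages at 41.1, 67.2, 82.7 and 36.7. Each mouse again had less in its FCGR4+ cells, and the populations overlapped because mice 2 and 3 had more in FCGR4+ cells than mice 1 and 4 had in FCGR4- cells. *Vsig4* had a log2 fold change of -0.84 (SE 0.193, 95% interval -1.30 to -0.39, edgeR adjusted P = 0.165), with the widest ratio, -1.51, in mouse 4. It passed with DESeq2 (adjusted P = 0.00277), with edgeR's newer quasi-likelihood method (0.0721), and with either other filter on low counts (0.0056 with none and 0.0848 with at least 10 counts in every library). Among 10 genes for its ligand C3, complement and B7-related proteins, 9 were tested and 0 passed by edgeR (2 lower at an unadjusted P under 0.05), and DESeq2 called 2 lower. *C3* itself was at 135.2 ± 24.1 in FCGR4+ and 357.3 ± 209.4 in FCGR4- cells (log2 fold change -1.26, edgeR adjusted P = 0.196), lower in 4 of 4 mice. The FCGR4- libraries also held more RNA of the fibroblast markers, and the part of this in *C3* was not tested.

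*F13a1*, encoding the A subunit of factor XIII, lies on the minus strand of chromosome 13 from 36867178 to 37050244. Its level was 215.4, 494.1, 785.1 and 322.4 normalized CPM in the FCGR4+ cells of mice 1 to 4, and 224.1, 760.6, 1330 and 633.1 in their FCGR4- cells. Mouse 1 had the lowest level in both populations and had nearly the same level in each, and the remaining mice had less in FCGR4+ cells. The log2 fold change was -0.60 (SE 0.175, 95% interval -1.02 to -0.19, edgeR adjusted P = 0.279 and 0.0200 by DESeq2), with ratios from -0.06 in mouse 1 to -0.97 in mouse 4. Of 20 transglutaminase and coagulation genes, 12 were tested, with a median log2 fold change of -0.67, and 4 were lower both by DESeq2 and at an unadjusted P under 0.05 by edgeR. Of these, 1 passed as lower in FCGR4+ cells, *F5*, encoding coagulation factor V, at 0.665 ± 0.438 against 5.30 ± 0.930 normalized CPM (log2 fold change -3.19, edgeR adjusted P = 0.0252), and passed in 4 of 4 fits without 1 mouse. *F13b*, the gene of the carrier subunit of factor XIII, had at most 1 count in a library. The 8 platelet markers summed to 39.6 ± 46.1 normalized CPM in FCGR4+ and 39.5 ± 32.5 in FCGR4- libraries. *Ppbp* made up most of both sums, at 0.910 to 2.68 in the libraries of mice 1 and 2 and 49.8 to 95.2 in those of mice 3 and 4, and the other 7 summed to 1.92 ± 0.872 and 7.06 ± 5.06. Of their 5 tested genes 1, *Itga2b*, passed as lower (log2 fold change -4.70, edgeR adjusted P = 0.0396), though not without mouse 1 or 2 (up to 0.184). In FCGR4- cells *Itga2b* was at 8.51, 4.38, 0.596 and 1.61 in mice 1 to 4, highest in mice 1 and 2, where *Ppbp* was low. Which cells its RNA came from was not tested. The part of platelet RNA in the level of *F13a1* was not tested.

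*Mrc1*, encoding the mannose receptor CD206, pointed the other way. It lies on the plus strand of chromosome 2 from 14229392 to 14332057 and has 29 merged exons. In FCGR4+ macrophages it was at 516.1, 210.5, 685.0 and 434.7 normalized CPM in mice 1 to 4, and in FCGR4- macrophages at 354.6, 166.5, 273.1 and 304.3. Each mouse had more in its FCGR4+ cells, and mouse 2, with the lowest level in both populations, made the groups overlap. The means were 461.5 ± 197.2 and 274.6 ± 79.5 (SD, n = 4), and the log2 fold change was 0.68 (SE 0.188, 95% interval 0.24 to 1.12, edgeR adjusted P = 0.258), and mouse 3 had the widest ratio, 1.33. DESeq2 called it (adjusted P = 0.0153), as did edgeR with no filter on low counts (0.0181). The macrophage markers as a list were also higher in FCGR4+ cells, with a median log2 fold change of 0.43 over 11 genes, a sum that was higher in 4 of 4 mice, 0 called by edgeR (6 higher at an unadjusted P under 0.05) and 6 called higher by DESeq2. The part of this shift in the level of *Mrc1* was not tested. The other genes of the mannose receptor family were low. *Mrc2*, an endocytic collagen receptor, was at 0.302 ± 0.304 in FCGR4+ and 4.10 ± 2.02 in FCGR4- cells (log2 fold change -4.11, edgeR adjusted P = 0.0516), and the call was lost without mouse 1 or 2, at adjusted P values of up to 0.184. The part of other cells in *Mrc2* was not tested. *Ly75*, encoding the receptor DEC-205 of dendritic cells, was at 2.62 ± 2.30 and 7.22 ± 8.69 (edgeR adjusted P = 0.593).

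**Figure D2:**
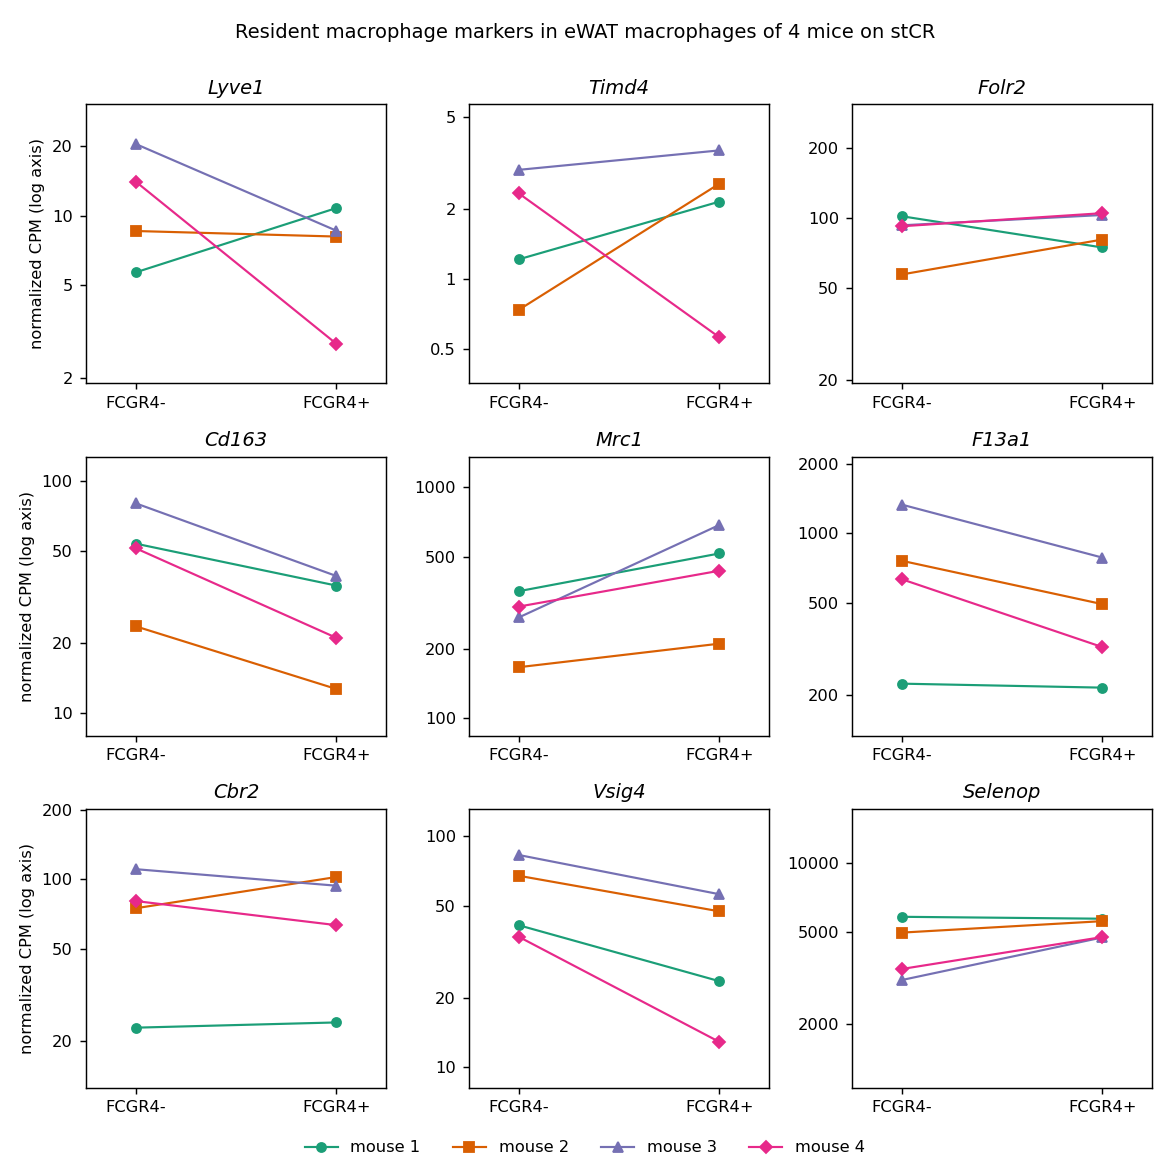
Level of the 9 markers in each library, in normalized CPM on log axes that span different ranges, with a line joining the FCGR4- and FCGR4+ cells of each mouse. The 4 lines of *Cd163*, *Vsig4* and *F13a1* fall toward FCGR4+ cells, those of *Mrc1* rise, and those of *Lyve1* and *Timd4* cross.

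The 250 bases before the annotated start of the 4 genes whose direction was the same in all mice are shown so that the sequence stands beside the change. They are the RefSeq promoter windows on GRCm38.p6, given 5′ to 3′ on the strand of the gene. For *Mrc1* the RefSeq start lies slightly inside the deposited gene, and for *F13a1* the first of its windows is given. Capitals mark matches on either strand to GAGGAAG (bound by PU.1, the factor that defines the myeloid lineage), TGCTGA (a MAF half-site) or AGAACA (a half-site of the glucocorticoid receptor). Of 32851 such windows of all genes, 10.6%, 16.1% and 16.1% hold the respective letters.
*Cd163*, chr6:124304401-124304650, plus strand: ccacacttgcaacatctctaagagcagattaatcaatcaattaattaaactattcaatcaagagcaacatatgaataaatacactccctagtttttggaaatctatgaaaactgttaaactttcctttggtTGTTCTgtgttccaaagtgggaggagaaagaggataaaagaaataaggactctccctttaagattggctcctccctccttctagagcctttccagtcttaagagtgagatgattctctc
*Vsig4*, chrX:96293439-96293688, minus strand: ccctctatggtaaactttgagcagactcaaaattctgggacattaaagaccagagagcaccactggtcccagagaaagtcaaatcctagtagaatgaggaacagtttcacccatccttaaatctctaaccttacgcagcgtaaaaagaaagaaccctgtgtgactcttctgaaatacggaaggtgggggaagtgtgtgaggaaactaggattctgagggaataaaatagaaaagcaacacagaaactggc
*F13a1*, chr13:37050245-37050494, minus strand: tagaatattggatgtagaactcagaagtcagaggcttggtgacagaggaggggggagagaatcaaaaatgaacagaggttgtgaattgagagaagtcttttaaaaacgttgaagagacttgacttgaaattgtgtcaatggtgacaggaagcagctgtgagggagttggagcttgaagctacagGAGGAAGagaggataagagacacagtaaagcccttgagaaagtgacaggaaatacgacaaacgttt
*Mrc1*, chr2:14229164-14229413, plus strand: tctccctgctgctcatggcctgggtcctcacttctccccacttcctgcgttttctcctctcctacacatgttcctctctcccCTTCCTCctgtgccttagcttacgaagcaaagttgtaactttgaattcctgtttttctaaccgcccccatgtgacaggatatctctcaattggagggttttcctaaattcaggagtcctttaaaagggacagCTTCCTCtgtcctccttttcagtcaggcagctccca
The *Mrc1* window held GAGGAAG on the opposite strand at 168 and 36 bases before the start, and the *F13a1* window held it on its own strand at 66. The *Cd163* window held AGAACA on the opposite strand at 119. The *Vsig4* window held none of these letters. Windows were found for 8 of the 9 markers.

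For *Folr2*, *Cbr2* and *Selenop* the log2 fold changes lay between -0.02 and 0.30, and none of the 3 passed by edgeR or DESeq2. *Folr2*, encoding folate receptor beta, lies on the minus strand of chromosome 7 from 101839988 to 101857194. It was at 74.5, 80.6, 102.9 and 104.7 normalized CPM in the FCGR4+ cells of mice 1 to 4, and at 101.6, 56.9, 92.8 and 91.98 in their FCGR4- cells. The ranges lay over each other, and mouse 1 went against the other mice. Between the populations the log2 fold change was 0.10 (SE 0.176, edgeR adjusted P = 0.857), with a 95% interval of -0.32 to 0.51. Of the exon bases of *Folr2*, 63.1% are shared with the antisense gene *Gm10602*, and pairs there were left uncounted, so its level is understated. *Gm10602* itself had 1.56 and 1.77 normalized CPM in FCGR4+ and FCGR4- cells. Of 16 folate receptor, carrier and enzyme genes, 15 were tested and 0 passed by edgeR or by DESeq2 (1 higher at an unadjusted P under 0.05 by edgeR). *Folr1*, the gene of folate receptor alpha, had at most 25 counts.

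*Cbr2* lies on the minus strand of chromosome 11 from 120729489 to 120732114, and 12.1% of its 50-base words also occur in the pseudogene *Gm11771*. Its level was 24.1, 102.2, 93.8 and 63.4 normalized CPM in the FCGR4+ cells of mice 1 to 4, and 22.9, 74.9, 110.6 and 80.5 in their FCGR4- cells. Mouse 1 stood below the others in both populations, as for *F13a1*, while within each mouse the populations were close. The log2 fold change was -0.02 (SE 0.167, 95% interval -0.41 to 0.38, edgeR adjusted P = 0.978). The related reductase genes *Cbr1* and *Cbr3* had log2 fold changes of 0.25 and 0.07, and 0 of the 7 reductases passed by edgeR (1 in each direction at an unadjusted P under 0.05), with 1 called lower by DESeq2.

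*Selenop*, on the plus strand of chromosome 15 from 3268547 to 3280508, was by far the most abundant marker. It was at 5724, 5587, 4752 and 4770 normalized CPM in the FCGR4+ cells of mice 1 to 4, and at 5835, 4986, 3111 and 3472 in their FCGR4- cells. FCGR4+ cells had more in mice 2, 3 and 4 and about the same in mouse 1. Its log2 fold change was 0.30 (SE 0.147, 95% interval -0.04 to 0.65, edgeR adjusted P = 0.555). Of its exon bases, 15.4% are shared with *Ccdc152* on the other strand. Of 29 genes for other selenoproteins, their synthesis and the receptors of SELENOP, 24 were tested, 0 passed by edgeR (2 lower at an unadjusted P under 0.05) and 1 was called lower by DESeq2. The receptor genes were low, *Lrp8* at 0.567 ± 0.482 and 2.48 ± 1.77 in FCGR4+ and FCGR4- cells and *Lrp2* with at most 29 counts.

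*Lyve1* and *Timd4*, the markers most often used to define resident macrophages, were the lowest of the 9. *Lyve1*, on the minus strand of chromosome 7 from 110850607 to 110863239, was at 10.8, 8.13, 8.62 and 2.80 normalized CPM in the FCGR4+ cells of mice 1 to 4, and at 5.69, 8.59, 20.4 and 14.1 in their FCGR4- cells. Mouse 1 had more in FCGR4+ cells, mouse 2 about the same, and mice 3 and 4 less. The log2 fold change of -0.67 therefore had a wide 95% interval, -1.87 to 0.53 (SE 0.510, edgeR adjusted P = 0.667). The defining lymphatic gene *Prox1* had at most 15 counts in a library. The 7 lymphatic markers other than *Lyve1* summed to 4.74 to 27.4 normalized CPM in FCGR4+ and to 8.33 to 105.8 in FCGR4- libraries, with 0 of 5 tested called by edgeR and 2 called lower by DESeq2 and at an unadjusted P under 0.05 by edgeR, and their part in the level of *Lyve1* was not tested. *Pdpn*, which is not specific to lymphatic cells, made up most of these sums (13.8 and 46.1 on average), and the other 6 summed to 1.58 to 10.4 and to 1.85 to 10.3. Of 14 other genes for hyaluronan receptors, synthases and hydrolases, 10 were tested, 0 passed by edgeR (2 higher at an unadjusted P under 0.05) and 2 were called higher by DESeq2. The main hyaluronan receptor, *Cd44*, was at 477.1 ± 114.5 and 457.1 ± 58.7 (log2 fold change 0.04, edgeR adjusted P = 0.944).

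*Timd4*, on the plus strand of chromosome 11 from 46810800 to 46844332, had between 25 and 225 counts in a library. It was at 2.16, 2.58, 3.59 and 0.560 normalized CPM in the FCGR4+ cells of mice 1 to 4, and at 1.22, 0.736, 2.96 and 2.34 in their FCGR4- cells. Mice 1, 2 and 3 had more in FCGR4+ cells and mouse 4 had less, as it did for *Lyve1*. For *Timd4* the log2 fold change was 0.27 (SE 0.640, 95% interval -1.24 to 1.78, edgeR adjusted P = 0.894) and the interval was the widest of the 9. Of the other TIM genes, *Havcr2*, encoding TIM-3, was tested (log2 fold change -0.44, edgeR adjusted P = 0.565). The 8 large peritoneal macrophage markers summed to 17.6 to 36.9 normalized CPM in FCGR4+ and to 32.4 to 54.6 in FCGR4- libraries, lower in 4 of 4 mice. Of the 8, 1 passed as lower by edgeR, *F5*, which the coagulation list also holds, and *Gata6*, their defining transcription factor, was at 0.519 ± 0.445 and 1.63 ± 1.70. Their part in *Timd4* was not tested. *Clec4f*, the defining gene of Kupffer cells, had at most 2 counts.

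Compared per kilobase of exon, so that genes of different length can be set side by side, the mean level over the 8 libraries was 1682 normalized CPM for *Selenop* and 88.4 for *F13a1*. *Mrc1* at 57.8, *Folr2* at 57.1 and *Cbr2* at 53.9 followed with nearly equal levels. *Vsig4* was at 30.9, *Cd163* at 7.27, *Lyve1* at 3.39 and *Timd4* at 0.929. *Selenop* thus stood above 99.7% of the tested genes, *Vsig4* above 88.5%, *Lyve1* above 55.8% and *Timd4* above 32.4%. For the genes from *F13a1* to *Vsig4*, the ranges over the libraries overlapped each other. In FCGR4+ cells *Mrc1*, at 72.4 ± 31.0, was level with *F13a1*, at 67.4 ± 36.9, whereas in FCGR4- cells they were at 43.1 ± 12.5 and 109.3 ± 67.8 (SD, n = 4), and these differences between genes were not tested. Dividing the whole level of *Folr2* by only the exon bases it shares with no other gene gave 154.6. This was a rescaling and not a recount, and any counted pairs that reach into the shared bases were not set apart.

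**Figure D3:**
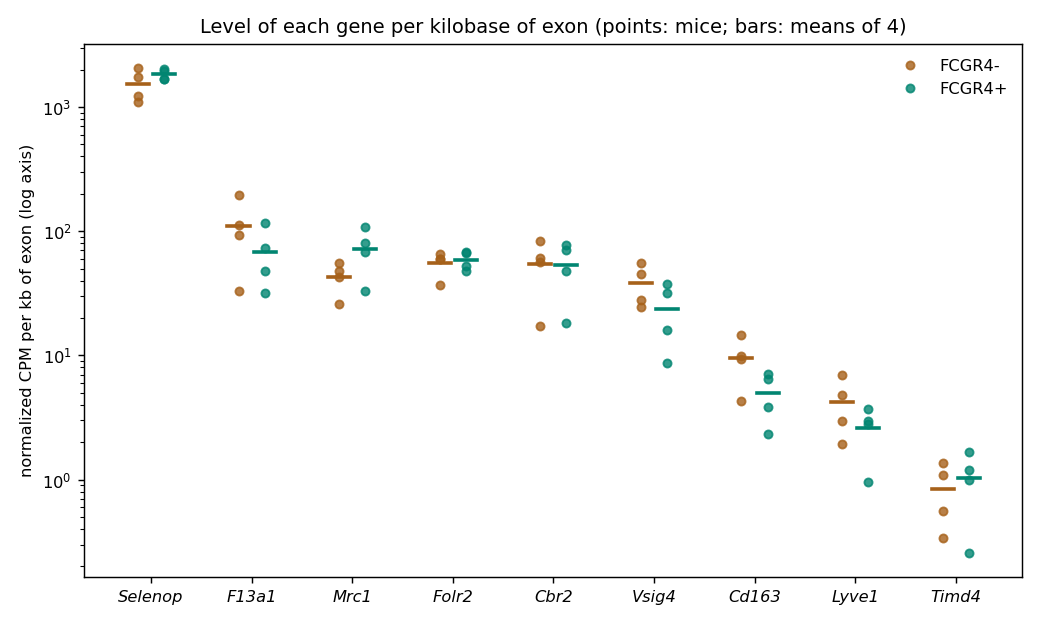
Level of each marker per kilobase of exon in normalized CPM on a log axis, for the 4 FCGR4- and the 4 FCGR4+ libraries, with bars at the means. *Selenop*, at 1682, lies above every other marker in every library, and *Timd4* is the lowest, at 0.929 over the 8 libraries.

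The markers also differed in where their variation lay. For *Cbr2* the mouse with the highest mean level had 4.34 times that of the lowest, and for *F13a1* 4.65 times, against 1.45 times for *Folr2* and 1.50 times for *Selenop*. The SD between mice of the mean log2 CPM was 0.960 for *Cbr2* and 0.927 for *F13a1*, larger than that of 97.4% and 97.1% of the 8088 tested genes with a mean of at least 10 normalized CPM, whose median was 0.270. The within-mouse log2 ratio of *Cbr2* had a mean size of 0.276, close to the median of 0.305 over those genes, so that it varied more between mice than between the populations of a mouse. *Cd163*, *Vsig4*, *Mrc1* and *F13a1* varied on both scales. Their within-mouse ratios had mean sizes of 0.956, 0.845, 0.680 and 0.603, above 97.4%, 96.4%, 93.4% and 90.6% of those genes, and their SDs between mice were above those of at least 90.5% of them. *Lyve1* and *Timd4* had the widest within-mouse ratios, 1.14 and 1.21, in directions that differed between mice.

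**Figure D4:**
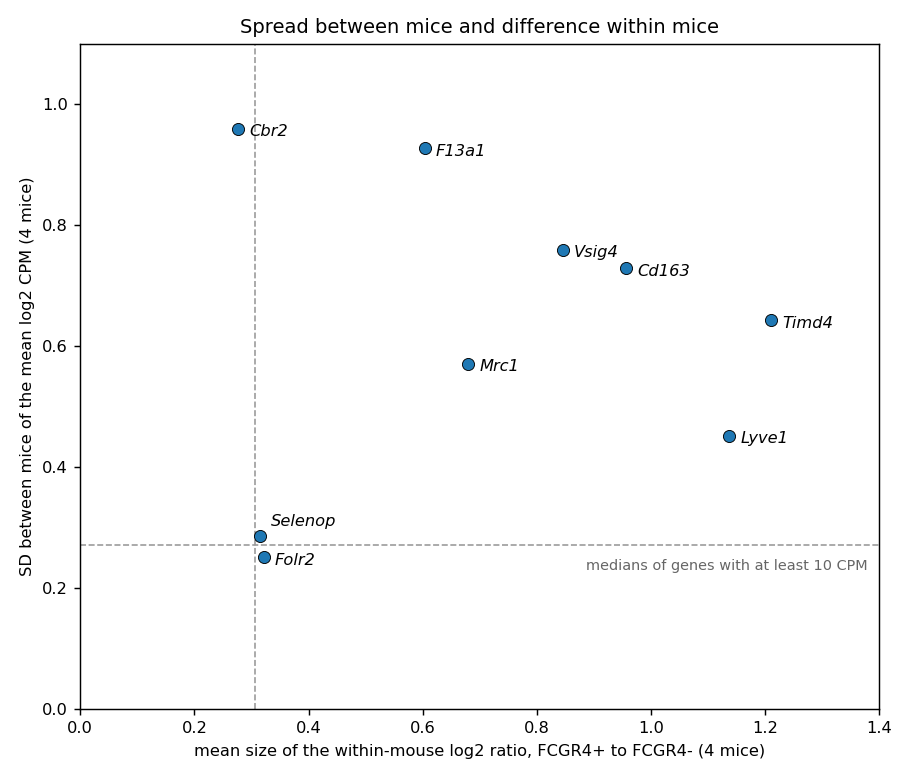
SD between the 4 mice of each marker's mean log2 CPM, against the mean size of the log2 ratio of FCGR4+ to FCGR4- cells within mice. Dashed lines are the medians, 0.305 and 0.270, of the 8088 genes with at least 10 normalized CPM. *Cbr2* and *F13a1* lie highest, *Lyve1* and *Timd4* farthest to the right, and *Folr2* and *Selenop* near the medians on both axes.

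Animal identifiers give mice 1 and 2 the same prefix and mice 3 and 4 another, and what the prefix marks was not given in the sources used here. The log2 fold change in mice 1 and 2 and in mice 3 and 4 was -0.75 and -1.18 for *Cd163*, -0.66 and -1.05 for *Vsig4*, -0.34 and -0.89 for *F13a1*, and 0.44 and 0.90 for *Mrc1*. These 4 markers kept their direction in both pairs, which followed from their having 1 direction in all 4 mice and is no added support. The differences between the pairs did not pass (edgeR adjusted P = 0.459, 0.678, 0.413 and 0.521 in the same order). *Lyve1*, at 0.42 and -1.79, *Timd4*, at 1.30 and -0.88, and *Cbr2*, at 0.26 and -0.31, turned. The difference between the pairs was -2.20 for *Lyve1* (edgeR adjusted P = 0.304), -2.15 for *Timd4* (edgeR adjusted P = 0.404), -0.55 for *Cbr2* (edgeR adjusted P = 0.357) and 0.47 for *Selenop* (edgeR adjusted P = 0.355), so none passed after adjustment. The monocyte gene *Ly6c2* lay between 10.4 and 34.6 normalized CPM in the 4 libraries of mice 1 and 2 and between 313.7 and 458.1 in those of mice 3 and 4, and the part of that difference in the marker levels was not tested.

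Across the 8 libraries, the log2 levels of some markers followed each other and those of others did not. These correlations are descriptive, since the 8 points are 4 mice with both populations sharing an animal. *F13a1* went with *Cbr2* (Pearson's r = 0.871, Spearman's rho = 0.810) and with *Vsig4* (0.729 and 0.810), *Lyve1* with *Timd4* (0.723 and 0.619), and *Mrc1* with *Folr2* (0.622 and 0.571). *Selenop* ran against *F13a1* (-0.750 and -0.810). *Mrc1* and *Cd163*, both often read as signs of the same macrophage state, had r = 0.265 and rho = 0.143. The correlation of each marker with the mean profile of the 9 ranged from 0.819 for *Timd4* to -0.667 for *Selenop*, with *Mrc1* at 0.0565, so that this mean stood for some of the 9 markers and not for others. The other genes most like that mean were *Preb* (r = 0.958), *Gm19945*, *Spats2l*, *Gm10193*, *C030034I22Rik*, *Gm8825*, *3222401L13Rik*, *Fas*, *Smim10l2a* and *Cdh1* (0.919). Of these 10, 5 were also among the 10 by Spearman's rho and 1 after centering within each mouse, so the order depended on the measure. After centering these 10 had r between 0.727 and 0.997. They had been picked for a high r over the same libraries, and centering leaves 1 ratio per mouse, so these values are no separate support. Mean levels were low for *Spats2l* (0.934 normalized CPM), *C030034I22Rik* (0.599), *Gm8825* (0.690) and *3222401L13Rik* (0.566).

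Of 23 other genes of tissue-resident macrophages, all tested, 1 passed as lower in FCGR4+ cells and 0 as higher by edgeR, with a median log2 fold change of -0.19. By DESeq2, 4 were called lower and 4 higher, and at an unadjusted P under 0.05 by edgeR 4 were lower and 5 higher. The gene that passed was *Cd209f*, encoding a C-type lectin of the DC-SIGN family. It was at 0.0674, 1.81, 14.2 and 3.74 normalized CPM in the FCGR4+ cells of mice 1 to 4 and at 2.62, 6.65, 47.8 and 17.7 in their FCGR4- cells (log2 fold change -2.40, SE 0.456, edgeR adjusted P = 0.0935), lower in 4 of 4 mice. The call was lost without mouse 2, 3 or 4 (edgeR adjusted P of up to 0.234). Its relatives *Cd209g* and *Cd209d*, singled out after their values were seen, were lower in 4 of 4 mice too, with log2 fold changes of -1.94 and -2.69 (adjusted P = 0.105 and 0.335 by edgeR). Higher in 4 of 4 mice, and likewise singled out after their values were seen, were *Cd5l*, encoding a secreted scavenger protein (log2 fold change 1.16, edgeR adjusted P = 0.160), *Siglec1*, encoding the sialic acid receptor CD169 (0.70, 0.183), *Maf* (0.77, 0.258) and *Wwp1* (0.53, 0.343), and DESeq2 called these 4 higher. Mouse 3 had the highest level of *Cd209f* in both populations, as it had of *Cd163*, *F13a1*, *Vsig4* and *Timd4*.

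**Figure D5:**
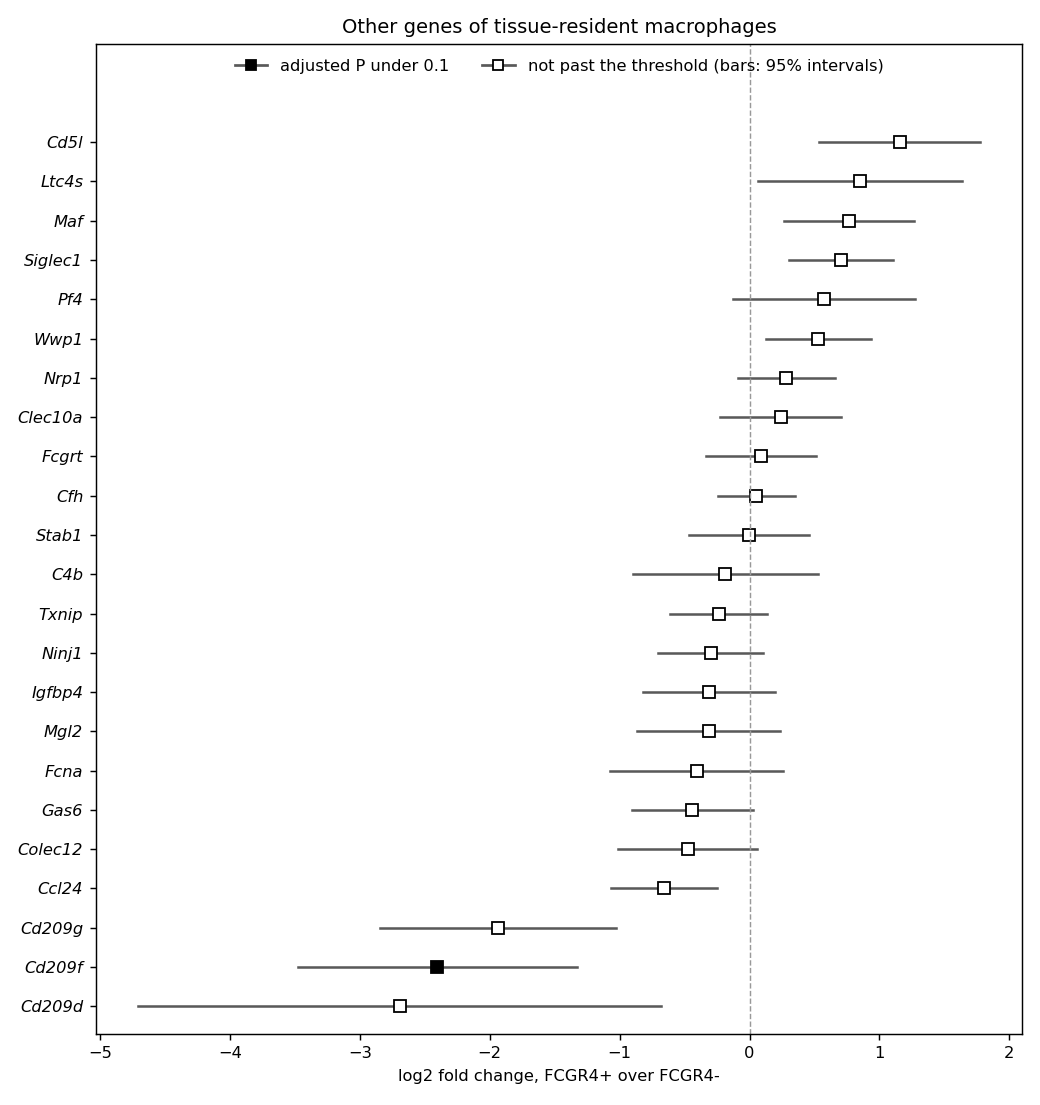
Log2 fold change, FCGR4+ over FCGR4- macrophages, of 23 other genes of tissue-resident macrophages from the paired fit, with 95% intervals as bars. The filled square, *Cd209f* at -2.40, had an adjusted P under 0.1, and the open squares lie on both sides of 0 around a median of -0.19.

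Of 19 transcription factors and growth factor genes of resident macrophages, 1 passed as lower in FCGR4+ cells, *Csf1*, the gene of the growth factor that macrophages depend on, at 3.28 ± 1.55 against 40.3 ± 37.0 normalized CPM (log2 fold change -3.10, edgeR adjusted P = 0.0448), which was lost without mouse 1 or 4 (up to 0.146). By DESeq2, 3 of the 19 were called lower and 2 higher, 3 were lower and 3 higher at an unadjusted P under 0.05 by edgeR, and the median log2 fold change was 0.01. The FCGR4- libraries also held more RNA of the mast cell and fibroblast markers, and the part of these in *Csf1* was not tested. *Maf*, a transcription factor of resident macrophages, was at 129.7 ± 41.6 and 73.7 ± 7.49, higher in FCGR4+ cells in 4 of 4 mice (log2 fold change 0.77, edgeR adjusted P = 0.258 and 0.0161 by DESeq2). Of 15 genes of classical monocytes and recent recruits, 1 passed as lower and 0 as higher by edgeR, with 3 called lower by DESeq2 and 3 lower and 2 higher at an unadjusted P under 0.05 by edgeR. The 1 that passed was *Vcan*, encoding the proteoglycan versican, at a log2 fold change of -1.44 (edgeR adjusted P = 0.0602), which did not pass without mouse 2, 3 or 4 (up to 0.212). *Ccr2*, encoding the chemokine receptor of classical monocytes, was at 407.7 ± 213.5 and 416.5 ± 252.0. Of 18 genes of lipid-associated macrophages, 0 passed by edgeR (3 higher at an unadjusted P under 0.05) and 1 was called higher by DESeq2, with a median log2 fold change of 0.26.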

How the data were processed

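The authors mapped the read pairs to mm10 with STAR and counted them per gene with featureCounts 1.6.3 on GENCODE mouse release 18. The deposited values are these counts, unnormalized, beside a gene length that the authors' counter also wrote. Per the file header, multi-mapping pairs were counted at every site, strand was ignored, and pairs on exons of several genes were not counted, so overlapping genes lose counts. Counts were normalized by TMM and tested with edgeR 4.0.16 (glmQLFit with its defaults, R 4.3.3) with mouse as a block and Benjamini-Hochberg adjustment over 17095 genes. Libraries of the same number come from 1 mouse, and their deviations from the population means correlated at 0.291 to 0.428. Standard errors were derived from the fold change and the F statistic (change over root F). Per-mouse ratios use log2 CPM with a prior count of 2. DESeq2 1.42.0 was an alternative. Counts were simulated for 16480 genes from edgeR's own fitted means and dispersions, a setting that may favor edgeR. On these, edgeR recovered 32.0% of genes changed 2-fold and 74.5% of those changed 4-fold, with 16 of 117 calls wrong. DESeq2 recovered 55.7% and 85.1%, with 96 of 230 wrong, and its calls given here are to be read beside that share. Shared 50-base words were sought in GENCODE release 21 transcripts. The genes named are the 9 markers, the sort antigens, the called genes and the first 2 genes of each of 28 hand-written lists, and the 10 genes most like the markers' mean. Outside that rule, *Ccdc152*, *Gm10602* and *Gm11771* were named because they overlap a marker gene or share its sequence, and *Wwp1*, *Siglec1*, *Cd5l*, *Cd209g*, *Cd209d*, *Il18bp*, *Fabp4* and *Pdpn* were chosen after their values were seen. The markers and lists were chosen with earlier results of these data known. Some listed genes are not reported here and were taken out of the lists; they stayed in the fit.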

Additional observations from a re-analysis of the deposited data

Results flagged for a closer look

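*Cbr2* went in opposite directions in mice 1 and 2 and in mice 3 and 4. FCGR4+ cells had more in mouse 1 (log2 ratio 0.08) and mouse 2 (0.45), and less in mouse 3 (-0.24) and mouse 4 (-0.35). The difference between the pairs of mice was -0.55 on the log2 scale (edgeR adjusted P = 0.357 over all tested genes), so it did not pass after adjustment. *Cbr2* was not alone in this. Unadjusted, the edgeR P was 0.0459 for *Cbr2*, 0.00721 for *Lyve1* (difference -2.20) and 0.0434 for *Selenop* (0.47), and above 0.05 for the remaining markers. In 27 groups of 4 values (the levels and ratios of the 9 markers), 0 samples stood apart from the other 3 by Dixon's test, where chance gives 1.35.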

How the results depend on the processing

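The number of markers called depended on the fit more than their direction did. Higher and lower in FCGR4+ cells, 14 and 203 of all tested genes and 0 and 1 of the 9 markers were called. With no replicate block these counts were 1 and 47, and 0 and 0 markers, and *Cd163* had an adjusted P of 0.802. With DESeq2 they were 192 and 832 genes, 1 and 3 markers. With edgeR's newer quasi-likelihood method they were 57 and 572 genes, 0 and 2 markers. With no filter on low counts they were 159 and 895 genes, 1 and 3 markers, and the median of all genes moved to -0.16. With at least 10 counts in every library they were 19 and 237 genes, 0 and 2 markers, and with library size alone 8 and 236 genes, 0 and 1 markers. At an adjusted P under 0.05, 2 and 74 genes passed and 0 markers. Mice 1 and 2 alone gave 7 and 108 genes, mice 3 and 4 alone 61 lower, and 0 markers in either. Without 1 mouse each, 2 to 9 genes were called higher and 76 to 153 lower, and 0 markers in either direction. *Cd163*, *Vsig4*, *F13a1*, *Mrc1* and *Selenop* kept their direction in 13 of 13 other fits. For the first 4 of these, all 4 mice had the same direction, so the fits on fewer mice could hardly turn them. *Cbr2* turned to 0.0035 with no filter and 0.26 in mice 1 and 2 alone, and ran from -0.14 to 0.10 with 1 mouse left out, turning without mouse 3 (0.05) or mouse 4. *Timd4* turned to -0.88 in mice 3 and 4 alone and ran from -0.22, without mouse 2, to 0.95. *Folr2* ran from -0.0050, without mouse 2, to 0.28, and *Lyve1* turned to 0.42 in mice 1 and 2 alone. The cause was not tested. With 4 mice, intervals for *Lyve1* and *Timd4* stayed wider than 2 log2 units.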

Other observations

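The remaining marker lists of other cells were described by their counts. Of the T and NK cell markers, 9 of 10 were tested and 5 passed as lower in FCGR4+ cells by edgeR, with a median log2 fold change of -2.34. Of the B cell markers, 6 of 7 were tested and 2 passed as lower (median -2.28), and of the mesothelial markers 1 of 6 did (*Msln*, adjusted P = 0.0874 by edgeR). Of 9 tested blood endothelial, 7 tested adipocyte and 5 tested Kupffer cell markers, 0 passed in either direction by edgeR, with median log2 fold changes of -0.68, -0.42 and -0.45. At an unadjusted P under 0.05 by edgeR these lists had 1 higher and 2 lower, 0, and 2 higher and 1 lower, and DESeq2 called 1 lower, 0, and 2 higher and 1 lower. *Msln* passed in 1 of 4 fits without 1 mouse by edgeR, and not without mouse 1, 2 or 3.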
